A study of Mus musculus with 6 samples.

Results

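Mouse pro-B cells lacking Pax5 were transduced with an EBF or a control retrovirus. In them the E protein genes Tcf3, Tcf4 and Tcf12 and the Id genes Id1, Id2, Id3 and Id4 were followed. Every probe set whose gene symbol in the platform's gene table was exactly one of these was taken, whatever its values. This gave 22 of 45037 probe sets for all 7 genes, 14 for the E proteins and 8 for the Id genes. Each probe set, a group of oligonucleotides that reads part of a transcript, was kept separate. EBF is a transcription factor needed early in B cell development, and Pax5 is the factor that holds such cells to the B lineage.

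The EBF group held 3 arrays of Pax5-/- pro-B cells transduced with the Mig-EBF retrovirus, called EBF 1 to 3. The control group held 3 arrays of Pax5-/- pro-B cells transduced with the MigR1 retrovirus, called control 1 to 3. Cells of both groups lacked Pax5, grew on ST2 bone marrow stromal cells with 5 ng/ml IL-7, and were sorted for GFP 2 days after infection. The labels give no strain, sex or age, and number the replicates without naming separate cultures or animals. The p-values therefore measure a spread that may be technical.

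E proteins are basic helix-loop-helix transcription factors that bind the short DNA motif called the E box as dimers and drive B and T lymphoid genes. Tcf3, also called E2A, is required for B cell development, where it acts beside EBF, Tcf12 (HEB) is a main E protein of developing T cells, and Tcf4 (E2-2) is best known in plasmacytoid dendritic cells. Id proteins have the dimerization domain but no DNA-binding region, so they hold E proteins in dimers that do not bind DNA. Id2 is needed for natural killer and other innate lymphoid cells, and Id3 restrains E proteins in developing T and B cells.

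The arrays had median intensities of 439 to 445 in the EBF group and 424 to 451 in the control group. Probe sets for Bacillus transcripts, 27 in number and added to the array as controls, had array medians between 97.6 and 108 and reached 410 at most. They served as the level against which dim probe sets were read. All 10 pro-B marker genes lay above the highest Bacillus control of the array on all 6 arrays. So did 3 of 5 T cell, 4 of 6 myeloid, 1 of 6 natural killer, 1 of 4 later B cell and 7 of 9 ST2 stromal marker genes. EBF 3 correlated more closely with the controls (mean r 0.992) than with the other EBF arrays (0.990), so member probe sets whose call changes without it are given both ways. The brightest Ebf1 probe set averaged 4537 ± 394 in EBF arrays and 4169 ± 127 in control arrays (SD, n = 3 each; limma adjusted p = 0.469). Of the 5 Ebf1 probe sets, 0 were called higher in EBF arrays. The sources used here do not say whether they read viral transcripts, so they do not check the labels.

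Among the 22 probe sets, 1 Id2 probe set was lower in EBF arrays and the other 21 did not pass the test. Differences are EBF minus control on the log2(intensity + 32) scale, tested with limma, a linear model that pools the spread over probe sets, at an adjusted p of 0.05 over all probe sets. Over the whole array 0.875% of probe sets were called, 0.344% higher and 0.531% lower. The arrays were taken as paired by replicate number, a pairing read from the data and not stated in the labels. With that number as a block in the fit, 7.28% of all probe sets were called (4.88% higher, 2.4% lower), while among the 22 it was again 1, the same Id2 probe set. At an unadjusted p of 0.05, 3 of the 22 passed, against 18.9% of all. EBF and control arrays did not overlap for 5 of the 22 (1 higher, 4 lower), against 23.2% of all probe sets (15.5% higher, 7.67% lower). The median log2 difference was -0.04 over the 22 and 0.02 over all probe sets. By sign alone, 10 of the 22 were positive and 12 negative, against 25469 and 19568 of all 45037. Probe sets of the same gene are not independent readings, so a shared sign among them is a description.

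**Figure D1:**
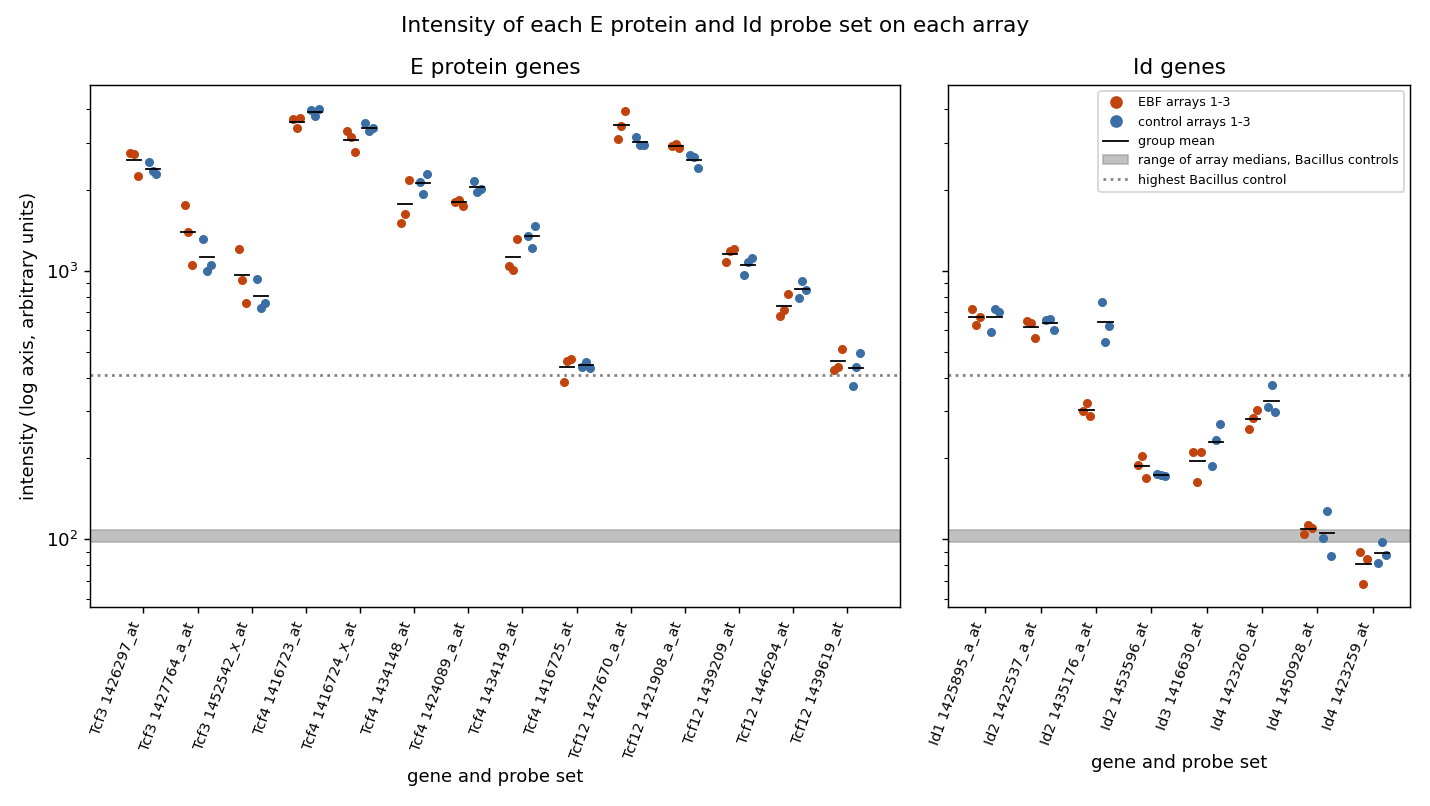
Intensity (log axis) of each of the 22 probe sets on each array, with EBF arrays left of control arrays and a bar at each group mean; the grey band spans the array medians of the Bacillus controls (97.6 to 108) and the dotted line marks their highest value (410). Id2 1435176_a_at is the probe set whose EBF arrays, at 288 to 322, lie far below its control arrays, at 543 to 768.

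Tcf4 read lower in EBF arrays at all 6 of its probe sets, under each scaling of the arrays tried, but none of these differences passed the test. The brightest, 1416723_at, had 3664, 3397 and 3705 in EBF 1 to 3, against 3962, 3761 and 4017 in control 1 to 3. All EBF arrays lay below all control arrays, by little. The log2 difference was -0.12 ± 0.07 (SE; limma adjusted p = 0.381), with a 95% interval from -0.29 to 0.04. The same separation was seen at 1416724_x_at (log2 -0.16 ± 0.08; limma adjusted p = 0.351) and at 1424089_a_at. At 1424089_a_at EBF 1 to 3 had 1812, 1831 and 1748, against 2166, 1964 and 2022 in control 1 to 3. Its log2 difference of -0.19 ± 0.07 had an unadjusted p of 0.0294 and a limma adjusted p of 0.218 (blocked 0.164).

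The pair of Tcf4 probe sets made from the same source sequence, 1434148_at and 1434149_at, separated EBF 1 and EBF 2, but not EBF 3, from the controls. Probe set 1434148_at had 1508, 1622 and 2176 in EBF 1 to 3, against 2136, 1938 and 2302 in control 1 to 3. EBF 1 and EBF 2 lay below every control array and EBF 3 lay among them. The log2 difference was -0.28 ± 0.14 (limma adjusted p = 0.310, blocked 0.0997) with all arrays and -0.43 without EBF 3 (limma adjusted p = 0.0308). Probe set 1434149_at had 1041, 1007 and 1317 in EBF arrays, against 1347, 1213 and 1469 in control arrays, and again EBF 3 alone lay within the control range. Its log2 difference was -0.26 ± 0.12 (limma adjusted p = 0.275, blocked 0.0772) and -0.38 without EBF 3 (limma adjusted p = 0.0463). Leaving out EBF 3, the EBF array nearest the controls, raised the calls over all 45037 probe sets from 394 to 4287. Passing without it is therefore not particular to Tcf4. The dimmest Tcf4 probe set, 1416725_at, averaged 439 ± 45.7 in EBF arrays and 444 ± 12.0 in control arrays (SD, n = 3 each), close to the highest Bacillus control.

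Tcf12 leaned the other way at 4 of its 5 probe sets, also under each scaling, and none passed the test. The brightest, 1427670_a_at, had 3100.0, 3464 and 3946 in EBF 1 to 3, against 3150.1, 2949.7 and 2936 in control 1 to 3. EBF 2 and EBF 3 lay above all controls and EBF 1 lay among them. The log2 difference was 0.21 ± 0.10 (limma adjusted p = 0.284), with a 95% interval from -0.01 to 0.43. At 1421908_a_at the EBF arrays had 2917, 2960.0 and 2865, against 2704, 2649 and 2405 in control arrays, and the groups did not overlap. Its log2 difference of 0.17 ± 0.07 had an unadjusted p of 0.0465 and a limma adjusted p of 0.256. The probe set that leaned down, 1446294_at, had 679.7, 717 and 822 in EBF 1 to 3, against 792, 918 and 849.6 in control 1 to 3. Its log2 difference was -0.20 ± 0.09 (limma adjusted p = 0.288), and the difference between its response and that of the brightest Tcf12 probe set was -0.41 ± 0.10 (limma adjusted p = 0.176, blocked 0.081).

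Tcf3, the E protein gene with the closest ties to EBF, read higher in EBF arrays at all 3 of its probe sets, under each scaling, and none passed. The brightest, 1426297_at, had 2746, 2723 and 2262 in EBF 1 to 3, against 2552, 2359.6 and 2291 in control 1 to 3. EBF 3 was the lowest of all 6 arrays and the other EBF arrays were the highest. The log2 difference was 0.10 ± 0.09 (limma adjusted p = 0.603), with a 95% interval from -0.12 to 0.31. The other probe sets, 1427764_a_at and 1452542_x_at, share a source sequence and moved alike from array to array. Probe set 1427764_a_at had 1754, 1394 and 1055 in EBF arrays, against 1319, 998 and 1049 in control arrays, so its EBF arrays spread more widely than the groups differed. Its log2 difference was 0.29 ± 0.18 (limma adjusted p = 0.398, blocked 0.103), with an interval from -0.11 to 0.70, the widest among the 22. It was 0.12 without EBF 1 and 0.48 without EBF 3 (limma adjusted p = 0.0691), while that of 1426297_at ran from 0.05 without EBF 1 to 0.19 without EBF 3.

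The E protein genes were also set against each other by the per-array log2 ratio of their brightest probe sets, a comparison chosen after their values were seen. The Tcf12 to Tcf4 ratio was -0.24, 0.03 and 0.09 in EBF 1 to 3, against -0.33, -0.35 and -0.45 in control 1 to 3. Every EBF array lay above every control array, by 0.33 on average. The exact two-sided permutation p was 0.1, the smallest that 3 arrays against 3 can give without pairing, and 0.3 after Benjamini-Hochberg adjustment over the 3 pairs. The Tcf4 to Tcf3 ratio differed by -0.22 (exact permutation p = 0.3, adjusted 0.45) and the Tcf12 to Tcf3 ratio by 0.11 (exact permutation p = 0.8, adjusted 0.8), and for both the arrays of the groups overlapped. None passed, so unequal change was not shown.

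**Figure D2:**
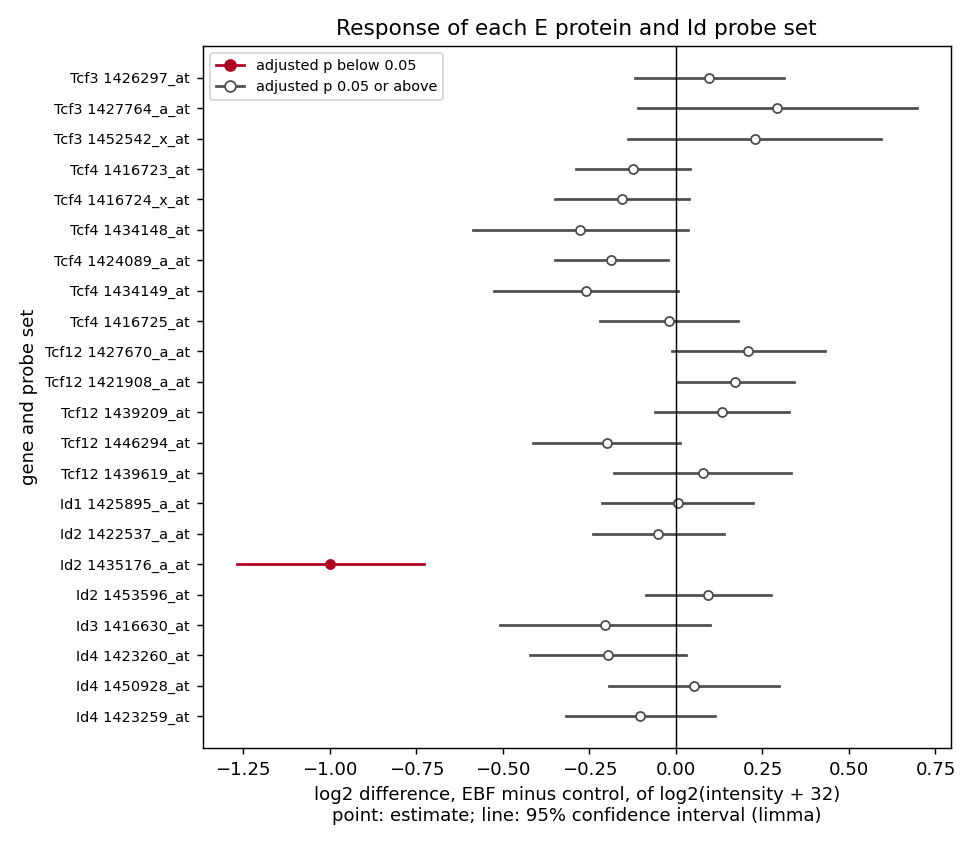
Log2 difference, EBF minus control, of log2(intensity + 32) for each probe set, with the limma estimate as a point and its 95% confidence interval as a line; red marks an adjusted p below 0.05. Id2 1435176_a_at, at -0.998, stands apart from the other 21, whose estimates lie between -0.28 and 0.29.

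Id2 had 1 called probe set and 2 that did not pass. Probe set 1435176_a_at had 302, 322 and 288 in EBF 1 to 3, against 768, 543 and 624 in control 1 to 3. The EBF arrays lay close together and all lay far below the lowest control. The means were 304 ± 17.4 in EBF arrays and 645 ± 114 in control arrays (SD, n = 3 each), which differ by -0.998 ± 0.12 on the log2 scale (SE; limma adjusted p = 0.0104, blocked 0.00117), with a 95% interval from -1.27 to -0.73. The EBF arrays fell below the highest Bacillus control of their own array and the control arrays lay above it. The call was lost without EBF 1 (log2 -0.99, adjusted p = 0.0528) or EBF 2 (-1.04, 0.0544) and held without any other array. Marker genes of pro-B cells and of other cell types and stages were read on the same arrays. Called among them were Ms4a1 (CD20, of later B cells) as higher (log2 1.11; limma adjusted p = 0.00118), and Lyz2 (lysozyme, of myeloid cells; log2 -0.48, limma adjusted p = 0.0169), Kit (the stem cell factor receptor; -0.79, 0.0187) and Dntt as lower. Of the 10 pro-B markers, Kit and Dntt among them, 0 were called higher and 2 lower. Their summed intensity was higher, at 61956 to 62853 in EBF arrays and 53051 to 55112 in control arrays. Much of that gap came from Igll1, with means of 13667 in EBF arrays and 9243 in control arrays. The means of Cd79a, Kit and Dntt were lower in EBF arrays and those of the other pro-B markers higher. The 4 later B cell markers summed to 3104 to 3219 in EBF arrays and 2915 to 3084 in control arrays. The 6 natural killer markers summed to 1704 to 1851 in EBF arrays and 1694 to 1783 in control arrays. For the 6 myeloid markers the sums were 3257 to 3501 in EBF arrays and 3418 to 3715 in control arrays. The part of other cells in the Id2 values was not tested. In bulk RNA, fewer cells with a transcript and less of it per cell cannot be told apart.

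The brightest Id2 probe set, 1422537_a_at, had 649, 642 and 561 in EBF 1 to 3, against 654, 664 and 601 in control 1 to 3. The groups overlapped, with a log2 difference of -0.05 ± 0.08 (limma adjusted p = 0.768) and a 95% interval from -0.24 to 0.14. That interval lies wholly above that of 1435176_a_at. The dimmest, 1453596_at, had 189, 204 and 169 in EBF arrays, against 175, 173 and 172 in control arrays (log2 0.09 ± 0.08; limma adjusted p = 0.547).

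The difference in response between the Id2 probe sets was tested directly. The pair was picked because 1435176_a_at had been called on the same arrays, so a separation was likely beforehand. The log2 ratio of 1435176_a_at to 1422537_a_at was -1.03, -0.93 and -0.89 in EBF 1 to 3, against 0.22, -0.28 and 0.05 in control 1 to 3. Every EBF array lay below every control array, by 0.95 on average, with an exact two-sided permutation p of 0.1, the smallest possible here without pairing. With the arrays paired by number the exact p was 0.25, the smallest that 3 pairs allow. When every probe set was tested in this way against the brightest of its own gene, 21 of 16752 pairs were called (0.125%), and the Id2 pair narrowly missed the threshold (limma adjusted p = 0.0545). It passed with the replicate number as a block (limma adjusted p = 0.0188), where 2.59% of all pairs were called. Which part of the Id2 transcript each probe set reads is not given in the sources used here, and cross-hybridization was not tested. Of the other 14 pairs of probe sets within these genes, 0 passed by limma, with or without the block, and 2 had an unadjusted p below 0.05, against 16% of all pairs. These were the Tcf12 pair above and the Id4 pair of 1450928_at to 1423260_at (difference 0.25; limma adjusted p = 0.254, blocked 0.154). Both of them, and the Id2 pair of 1453596_at to 1422537_a_at, also had an exact permutation p of 0.1 without pairing.

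**Figure D3:**
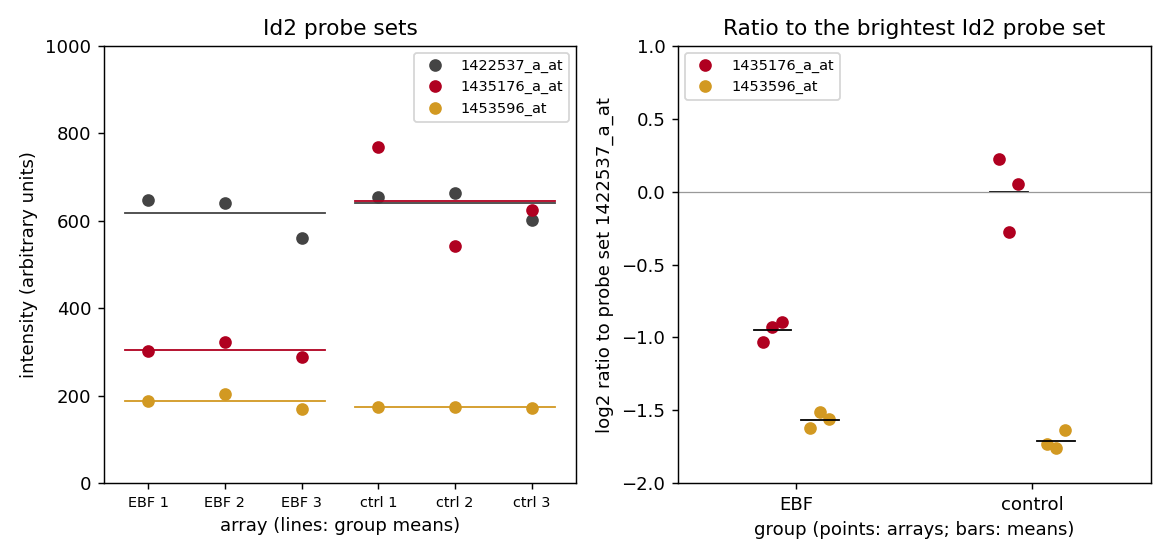
Left, intensity of the 3 Id2 probe sets on each array, with a line at each group mean; right, log2 ratio of the other 2 probe sets to 1422537_a_at by group, with arrays as points and means as bars. Only 1435176_a_at separates the groups widely, with ratios of -1.03 to -0.89 in EBF arrays and -0.28 to 0.22 in control arrays.

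The stretch of 250 bases before the RefSeq start of Id2 is shown because Id2 is the member with a called change (GRCm38.p6, chr12:25096093-25096342, minus strand, written 5′ to 3′). Capitals mark first a match to the core of the EBF motif, CCCNNGGG, and then an E box, CANNTG, which do not overlap each other.
Id2 promoter: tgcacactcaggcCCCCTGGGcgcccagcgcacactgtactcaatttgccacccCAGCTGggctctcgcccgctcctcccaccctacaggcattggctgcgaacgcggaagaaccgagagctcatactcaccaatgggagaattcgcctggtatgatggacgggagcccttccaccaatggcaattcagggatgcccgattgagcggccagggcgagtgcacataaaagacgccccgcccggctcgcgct
The EBF core began 237 bases and the E box 196 bases before the start. Both strands were searched. Of 32851 promoter windows of this length, 11.8% held the core and 66.2% held an E box, so an E box is common and the core less so. Windows were read for 5 of the 7 genes, as Id1 had no promoter in the source used and Tcf4 was left out. The Id4 window also held 1 EBF core and no E box, that of Id3 held neither, and that of Tcf3 held 1 E box. Tcf12 had 3 windows, of which 2 held 1 E box each and 0 an EBF core. These matches are letters in a window and not evidence of binding.

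Id1 and Id3, direct antagonists with 1 probe set each, and Id4 did not pass the test. Id1 had 719, 626 and 672 in EBF 1 to 3, against 590.4, 721 and 702 in control 1 to 3. The groups overlapped throughout, with means of 673 ± 46.7 and 671 ± 70.8 (SD, n = 3 each) in EBF and control arrays and a log2 difference of 0.01 ± 0.10 (limma adjusted p = 0.981), whose 95% interval ran from -0.21 to 0.22. Its sign turned with either other scaling of the arrays.

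Id3 was dim, below the highest Bacillus control on all arrays and above the Bacillus median on all. It had 212, 163 and 211 in EBF 1 to 3, against 188, 235 and 269 in control 1 to 3, with overlap between the groups (log2 -0.21 ± 0.13; limma adjusted p = 0.430). The arrays ranked by Id3 in the same order as by the summed intensity of the 9 ST2 stromal marker genes, an unplanned comparison. That sum was 18621, 12254 and 15953 in EBF 1 to 3, against 14019, 18691 and 23507 in control 1 to 3. Taken singly, Col1a1 and Col1a2 kept the order of the sum, while others did not. Vcam1 had 619, 624 and 654 in EBF 1 to 3, against 534, 590 and 570 in control 1 to 3. Sparc was highest in EBF 1 (5172). Of the 22 probe sets, Id3 was the 1 with the order of the sum, as were 44 of all 45037. The part of stromal RNA in the Id3 values was not tested.

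**Figure D4:**
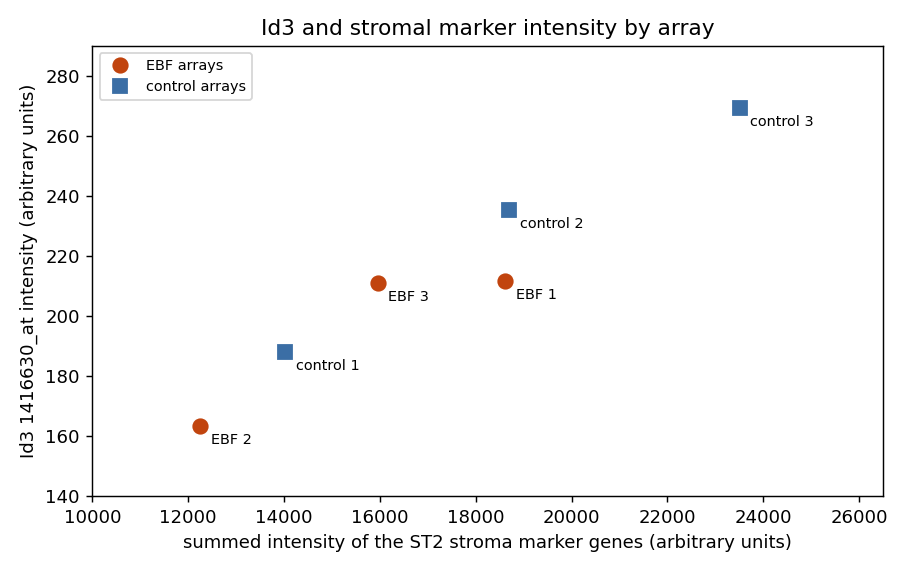
Intensity of the Id3 probe set against the summed intensity of the 9 ST2 stromal marker genes, with 1 point for each array (circles EBF, squares control). Both run from EBF 2 (163 and 12254) to control 3 (269 and 23507) in the same order of arrays, across the groups.

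The 3 Id4 probe sets carry the same source sequence label in the gene table and are near background. The brightest, 1423260_at, had 258, 284 and 302 in EBF arrays, against 312, 375 and 297 in control arrays (log2 -0.20 ± 0.10; limma adjusted p = 0.322). Probe set 1450928_at averaged 109 ± 4.55 in EBF arrays and 105 ± 20.5 in control arrays (SD, n = 3 each), at the Bacillus median. Probe set 1423259_at read 68.4 to 89.7 in EBF arrays and 81.7 to 97.7 in control arrays, below the Bacillus median on all 6.

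Genes whose pattern over the 6 arrays was most like a member's were found by Pearson r of log2(intensity + 32) among up to 19337 brighter probe sets, as a description. With 6 arrays high values are common: 162 probe sets reached r above 0.95 with Id2 1435176_a_at. Nearest to that probe set were Ppdpf (r = 0.993; log2 -0.26, limma adjusted p = 0.130) and Rasgrp1, a Ras activator of lymphocytes (r = 0.993; log2 -0.55, limma adjusted p = 0.0544). Nearest to Id3 were Fn1, the matrix protein fibronectin (r = 0.998), and Thbs1, the matrix protein thrombospondin (r = 0.993). Fn1 had 4471, 2923 and 4472 in EBF 1 to 3, against 3752, 5339 and 7156 in control 1 to 3, and the groups overlapped. The nearest to the brightest Tcf4 probe set were Lbh (r = 0.997) and Gsk3b, a kinase of Wnt signalling (r = 0.990). For Tcf12 they were Nek2, a mitotic kinase (r = 0.997), and Gid4 (r = 0.996), and for Tcf3 Txlna (r = 0.997) and Ergic3 (r = 0.996). Ankib1 and Ankrd35 came nearest to Id1 (r = 0.983 and 0.975), Chm and Zc3h13 to the brightest Id2 probe set (r = 0.992 and 0.986), and Olfml2b and Zwint to Id4 (r = 0.996 and 0.995).

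Genes around the E and Id proteins were read at their brightest probe set, where 1.09% of 18193 genes were called (0.418% higher, 0.671% lower). Of 26 genes described as targets of E proteins in lymphocytes, 1 rose, 2 fell and 23 did not pass, with a median log2 difference of 0.07 against 0.03 for all genes. At an unadjusted limma p of 0.05, 12 of the 26 passed (8 higher, 4 lower), against 19.7% of all genes. EBF and control arrays did not overlap for 34.6% of the 26, against 25.2% of all genes. Ebf1 is itself in the list. Whether any change in these genes came through E proteins or through the transduced EBF was not tested. Vpreb3, a helper in pre-B cell receptor assembly, rose by 0.67 ± 0.08 (limma adjusted p = 0.0093). Dntt, the terminal transferase, fell by 0.70 ± 0.10 (limma adjusted p = 0.0226), and at another of its 3 probe sets by 0.87 (0.0075). The third Dntt probe set had a log2 difference of -0.03 (limma adjusted p = 0.825). Notch1, a receptor that directs progenitors to the T lineage, fell by 0.59 ± 0.09 (limma adjusted p = 0.0286), and at its other probe set by 0.73 (0.00643). With the replicate number as a block 5 rose and 4 fell, against 7.34% of all genes called (4.82% higher, 2.52% lower). The additions were Igll1, Cd79b, Il7r and Foxo1 as higher and Irf8 and Cxcr5 as lower, while Cxcr5 had a wide spread (log2 -0.56 ± 0.45). Vpreb3 lost the call without control 1, control 2 or EBF 2 (highest adjusted p 0.0635), with log2 differences there of 0.65 to 0.68. Dntt lost it without control 1, control 3, EBF 1 or EBF 2 (0.106), at -0.73 to -0.61, and Notch1 without control 1, control 2, EBF 1 or EBF 2 (0.138), at -0.64 to -0.54.

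Among 28 measured tissue-restricted helix-loop-helix factors, which pair with E proteins, and their cofactors, 1 rose, 0 fell and 27 did not pass (median log2 -0.01). The riser was Bhlha15, or Mist1, a factor of secretory cells and plasma cells. Its brightest probe set averaged 1733 ± 168 in EBF arrays and 1149.7 ± 78.0 in control arrays (SD, n = 3 each; log2 0.58 ± 0.09, limma adjusted p = 0.0347, blocked 0.00574). The other Bhlha15 probe set had a log2 difference of 0.03 ± 0.10 (limma adjusted p = 0.902). The call held only without EBF 3 (adjusted p = 0.00819) and was lost without any other array (0.0937 to 0.171), at log2 differences of 0.52 to 0.63. With the block Cbfa2t3, a corepressor that works with Tal1, was also called lower (log2 -0.37; blocked adjusted p = 0.0207).

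Of 11 Hes, Hey and Bhlhe repressors 0 were called by limma in either fit, with 1 at an unadjusted p below 0.05, against 19.7% of all genes. Hes3 had a log2 difference of 0.24 ± 0.09 (limma adjusted p = 0.200) and Hes5 of 0.18 ± 0.08 (0.272). A dimmer Hes5 probe set was called in the blocked fit (log2 0.40; limma adjusted p = 0.126, blocked 0.0221). The list of BMP, TGF-beta and Egr inputs to Id genes had 24 genes, inhibitors of the pathway among them. Of these 0 were called by limma and 5 had an unadjusted p below 0.05, a share near that of all genes. Acvr2a, a type II receptor for activins and BMPs, averaged 653 ± 147 in EBF arrays and 409.6 ± 54.3 in control arrays (SD, n = 3 each; log2 0.62 ± 0.15, limma adjusted p = 0.115, blocked 0.00389), and its other probe set had a log2 difference of 0.08. Without EBF 3 the difference was 0.74 (limma adjusted p = 0.0230). Acvr2b, its relative, had 0.34 ± 0.09 (limma adjusted p = 0.123, blocked 0.0503), and 0.41 without EBF 3 (limma adjusted p = 0.0205). Without EBF 3 the calls over all probe sets rose from 394 to 4287, and those over the 5 lists from 4 to 13. The blocked fit also called Smad7, an inhibitor of the pathway, lower (log2 -0.43; blocked adjusted p = 0.0258).

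Of 9 genes for the turnover of E and Id proteins 0 were called by limma in either fit, and 3 had an unadjusted p below 0.05, against 19.7% of all genes. Their median log2 difference was 0.16, against 0.03 for all genes, and 8 of the 9 values were positive, as were 58% of all genes. Stub1, a ubiquitin ligase, had 0.20 ± 0.08 (limma adjusted p = 0.236) and 0.05 at its other probe set, and Cdc20, an activator of the anaphase-promoting complex, had 0.18 ± 0.07 (0.244). Usp1, the enzyme known for stabilising Id proteins, averaged 6430 ± 307 in EBF arrays and 5962 ± 291 in control arrays (SD, n = 3 each; log2 0.11 ± 0.07, limma adjusted p = 0.457). Usp1 was named after its values were seen.

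**Figure D5:**
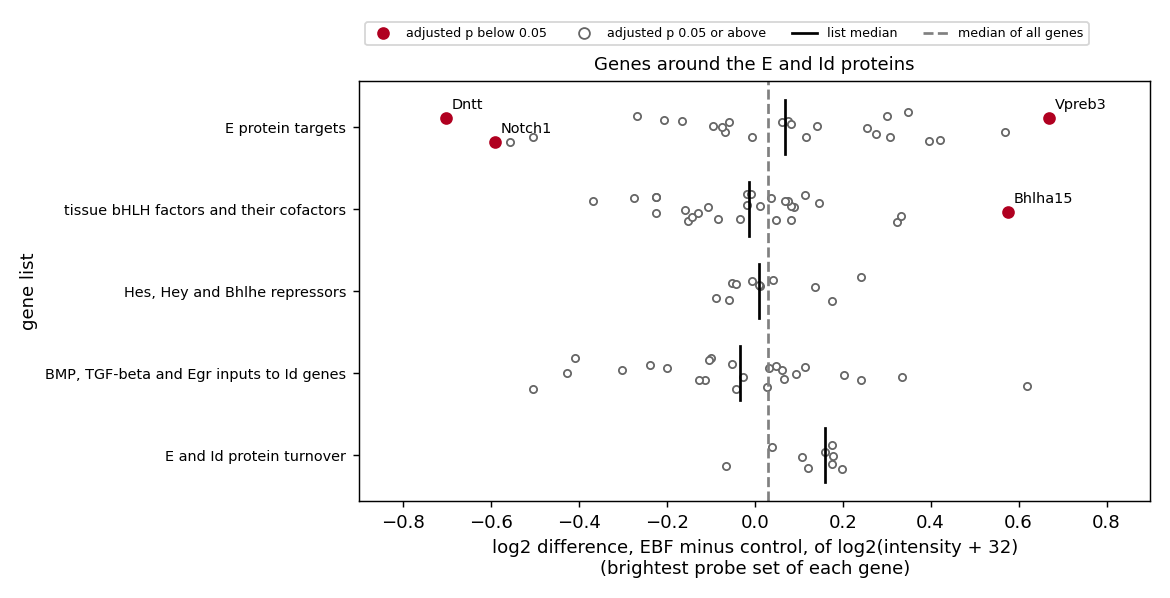
Log2 difference, EBF minus control, at the brightest probe set of each gene in the 5 lists around the E and Id proteins; filled red points passed an adjusted p of 0.05, black bars are list medians and the dashed line is the median of all genes (0.03). The called genes are Vpreb3 and Bhlha15 on the higher side and Dntt and Notch1 on the lower side.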

How the data were processed

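RNA from 6 samples was read on Affymetrix arrays. The deposited table holds intensities on a linear scale, 1 value for each probe set and array, from 1 to 30067. How the authors computed and scaled the deposited intensities is not given in the sources used here; any scaling by them is kept. The series' design text names a rat array, but the probe sets matched GEO's gene table for a mouse array. The table has 45101 probe sets, and its 64 Affymetrix controls did not enter the tests. Of the rest 34945 had 1 gene symbol, 932 several and 9160 none.

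Trimmed array means differed by less than 5%, so no scaling was added. The difference of log2(intensity + 32) was tested with limma 3.58.1 under R 4.3.3 (lmFit and eBayes, two-sided) and Benjamini-Hochberg adjustment over all 45037 probe sets. The number of arrays limits the precision. Such fold changes understate those of dim genes. The method was tested on simulated data with independent noise. It recovered 84% of log2 changes of 1 and 34% of changes of 0.5, with 100 of each. Smaller changes were not simulated, so a member that did not pass may still have changed. Deviations of same-numbered arrays correlated at 0.318, 0.255 and 0.503, all above 0.1, so numbers were taken as pairs. Those of unlike-numbered arrays correlated at -0.371 to 0.0581. Deviations from the mean of 3 arrays depend on each other, so this check cannot establish the pairing. The labels do not state this pairing.

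Alternatives were the pseudocount, scaling, a filter on dim probe sets, an intensity trend, the replicate block, 1 probe set a gene and leaving out arrays. The test over all pairs of probe sets of a gene was chosen after seeing the data.

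Members and lists (99 entries, 97 genes measured) were chosen with earlier results of these data known. Named were all members, called list genes up to 4 a list or else the 2 with the smallest p, and the 2 genes most like each member's brightest probe set and each called one. Others were named after their values were seen. Promoters are from RefSeq (GRCm38.p6).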

Additional observations from a re-analysis of the deposited data

How the results depend on the processing

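The 1 member called became 0 with 1 probe set a gene, because the called Id2 probe set is not the brightest and was not tested there, and ran from 0 to 3 when 1 array was left out (0 without EBF 1 or EBF 2, 3 without EBF 3). It became 3 without EBF 3 and control 2 together. All 394 probe sets called, of 45037, became 3280 with the replicate block and 1887 without EBF 3 and control 2 together. When 1 array was left out they ran from 79 to 4287 (119 without EBF 1, 79 without EBF 2, 4287 without EBF 3). The 4 list genes called became 13 with the replicate block, 7 without EBF 3 and control 2 together, and 0 to 13 when 1 array was left out. Blocking on the replicate pairs changed no call among the 22 probe sets.

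Of 313 values for single member probe sets under the alternatives, 297 kept direction and side of the threshold. The called Id2 probe set ranged from -1.11 to -0.83 and fell short without EBF 1 or EBF 2. The Tcf4 pair 1434148_at and 1434149_at passed without EBF 3 (-0.43 and -0.38) and without EBF 3 and control 2 together (-0.50 and -0.45). Signs turned at 10 values, none past the threshold. Id1 turned to -0.023 with median scaling and -0.013 with quantile normalization, and Id2 1422537_a_at to 0.038 without EBF 3 and control 2 together. When 1 array was left out, Id1 ran from -0.080 to 0.058, Id2 1422537_a_at from -0.093 to 0.012, Tcf4 1416725_at from -0.068 to 0.063, Tcf12 1439619_at from -0.023 to 0.17 and Id4 1450928_at from -0.044 to 0.17. The cause was not tested. Dim probe sets limit what can be said of Id3 and Id4.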
